A study of Mus musculus with 6 samples.

Results

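The SLC25 family of carriers was followed in mouse mesenchymal stem cells exposed to terahertz radiation. The family was taken as every gene whose symbol in the array annotation is Slc25a followed only by digits and that has a probe set naming no other gene. That rule found 44 genes, read by 93 probe sets, among 18193 genes measured. A gene is represented by its brightest probe set (mean over the 6 arrays), and its other probe sets served as checks.

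In each of 3 independent experiments 1 culture was irradiated for 2 h at 2.52 THz by a continuous-wave gas laser (wavelength 118.8 µm), and its control culture stood next to it, not irradiated. Both kept a temperature of 26 to 27 °C, and RNA was taken directly after the exposure. All 6 cultures, controls included, had grown with 1 µM rosiglitazone, 5 µg/ml insulin, 100 µM isobutylmethylxanthine and 1 µM dexamethasone, given anew 48 h before, a mixture commonly used to turn such cells into fat cells. The cells are from 1 commercial source, each culture was read on 1 Affymetrix array, and all comparisons are between cultures given the mixture.

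SLC25 carriers are small membrane proteins, most of them in the inner mitochondrial membrane, that exchange metabolites between the cytosol and the mitochondrial matrix. Each carrier moves a narrow set of substrates, such as ADP against ATP, phosphate, citrate, malate, amino acids, cofactors or carnitine esters. The proteins are made in the cytosol from nuclear genes and inserted by a dedicated import route. In fat cells the citrate carrier supplies carbon for fatty acid synthesis, the carnitine carrier brings fatty acids in for oxidation, and the uncoupling proteins, relatives in the same family, let brown fat produce heat.

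Upstream sequences are shown for 3 members, since a carrier's transcription starts from such a stretch and these genes come back in the results below. All 3 hold a match to a searched motif, while the windows of most members did not. The first is Slc25a33, the member with the second smallest p in the comparison. Slc25a44, with the smallest, had no upstream sequence in the RefSeq table. The others are Slc25a34, the member with the largest difference in a single experiment, and Slc25a3, whose probe set was the second brightest among the 44 that stand for a gene. Each is the run of 250 bases before the RefSeq start, 5′ to 3′ on the gene's strand (build GRCm38.p6), and capitals mark a match to a searched motif.
Slc25a33, chr4:149774268-149774517, minus strand: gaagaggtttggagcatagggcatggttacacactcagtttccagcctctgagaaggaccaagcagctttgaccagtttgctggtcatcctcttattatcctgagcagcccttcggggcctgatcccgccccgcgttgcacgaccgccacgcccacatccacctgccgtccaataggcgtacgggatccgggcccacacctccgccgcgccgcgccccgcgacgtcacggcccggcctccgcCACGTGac
Slc25a34, chr4:141623835-141624084, minus strand: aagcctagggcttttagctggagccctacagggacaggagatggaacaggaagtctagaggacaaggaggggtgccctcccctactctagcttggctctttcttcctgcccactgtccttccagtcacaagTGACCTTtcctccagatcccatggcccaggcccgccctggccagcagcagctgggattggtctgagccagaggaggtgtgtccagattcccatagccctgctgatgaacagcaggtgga
Slc25a3, chr10:91123968-91124217, minus strand: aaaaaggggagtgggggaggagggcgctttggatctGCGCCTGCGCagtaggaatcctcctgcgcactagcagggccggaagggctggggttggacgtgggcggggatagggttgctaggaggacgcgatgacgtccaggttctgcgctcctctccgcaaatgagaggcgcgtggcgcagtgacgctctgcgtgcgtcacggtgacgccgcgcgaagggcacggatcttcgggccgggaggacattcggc

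The E-box CACGTG in Slc25a33 begins 8 bases before the start. In Slc25a34 the motif AAGGTCA of estrogen-related receptors, here on the other strand as TGACCTT, begins 119 bases before it, and in Slc25a3 a core of the nuclear respiratory factor 1 site begins 214 bases before. That core was searched as GCGCA and GCGC with 1 base of any kind between them. The match in Slc25a3 is on the other strand too, so it reads GCGC, 1 base of any kind and TGCGC. The motifs were searched on both strands and none of these matches overlaps another. The RefSeq table held 34 of the 44 members, and the same 250 bases were searched in every gene of the table. An E-box stood in 7 of them (20.6%), against 6.86% of all 27025 genes in the table, the respiratory factor core in 2 (5.88%, against 4.23%) and the receptor motif in 1 (2.94%, against 4.70%). Base composition differed as well, with a median GC content of 58.0% in the members' windows and 52.4% in all windows. Neither Slc25a4 nor Slc25a5, the main ADP/ATP carriers, had a match in the 250 bases. A match is a string of letters and not a measured binding site.

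Levels are log2 values from the authors' RMA processing, a method that subtracts background, brings all arrays to a common distribution and sums up several probes as 1 value. Array medians lay between 5.01 and 5.04, and with 6 arrays their number limits the precision. The 3′ probe set of actin minus the 5′ one, a measure of RNA integrity, was 0.50 to 0.57 on 5 arrays and 0.68 on the control of experiment 3, which also stood apart for Gapdh (0.11, against -0.10 to -0.08). The part of RNA quality in the carriers' values was not tested, and values without that experiment are given for the family below. All 12 measured markers of fat cells and 11 of 12 of stromal cells reached the median gene level of 6.46, while the stromal marker Thy1 lay at 3.88. All 12 macrophage markers were also at or above it, from 7.85 for Itgam to 14.17 for Lyz2, and 0 of 6 endothelial markers were. RNA of the whole culture was read, so fewer cells of a type and less RNA per cell cannot be told apart.

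Most of the family read well within the array's range of values, though detection above background was not tested. Of the 44 carriers 31 (70.5%) reached the median gene level, and the family's median was 7.74. The mean level ran from 2.42 for Slc25a31, an ADP/ATP carrier known from sperm, to 12.99 for Slc25a5. Probes differ in how brightly they report the same amount of RNA, so no ratio between genes can be read from them.

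**Figure D1:**
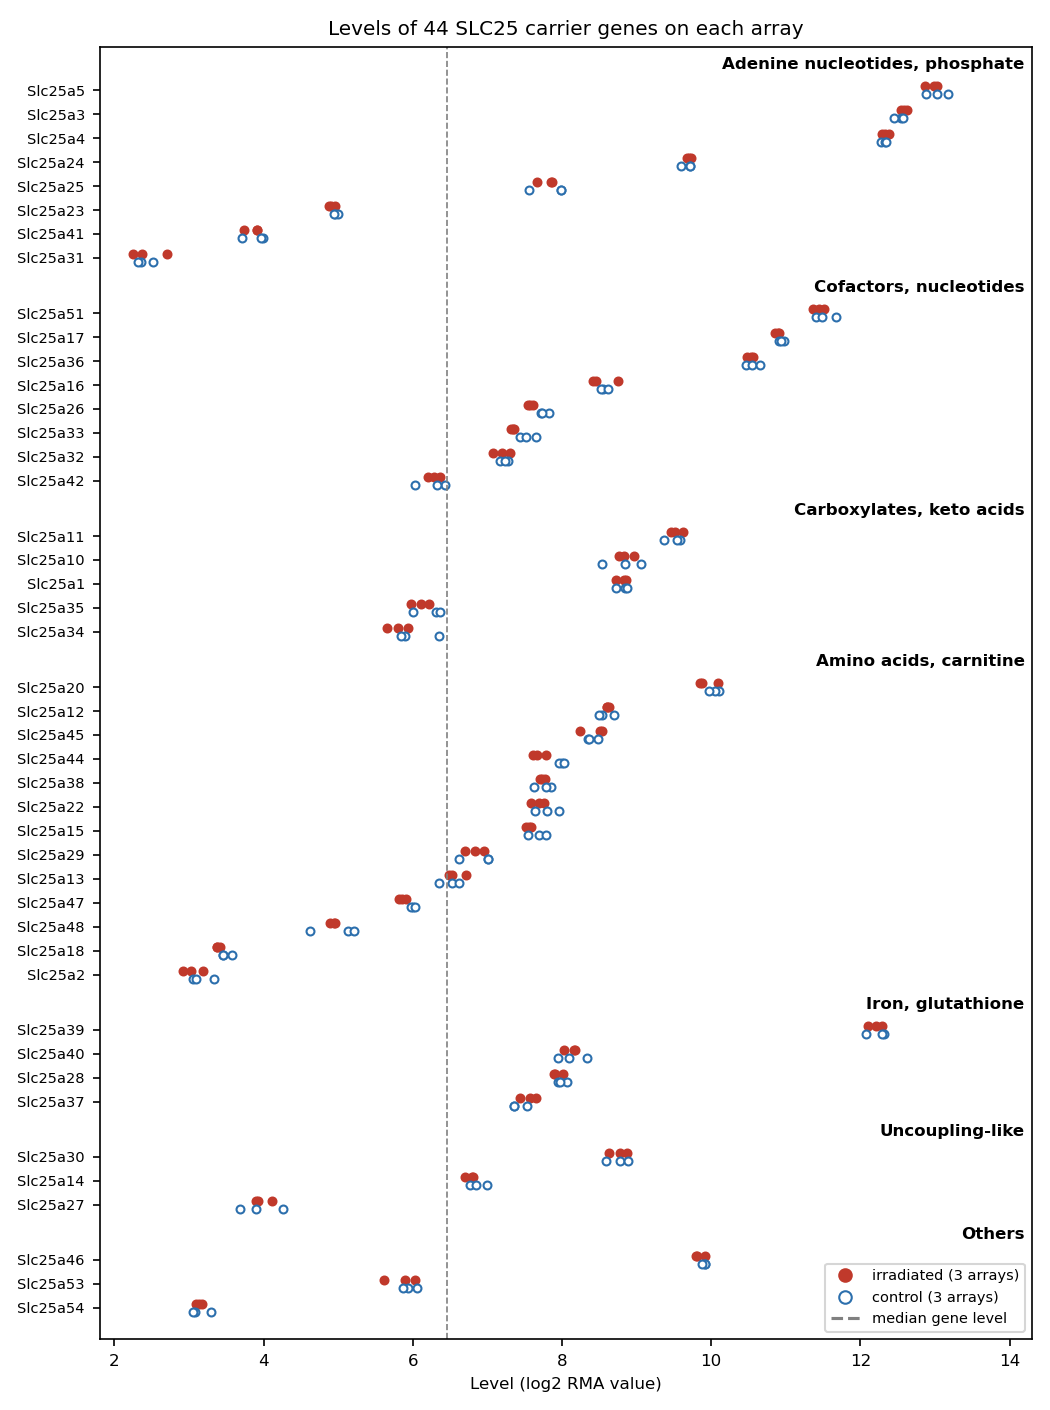
Level of each of the 44 carrier genes (log2 RMA value, horizontal) on the 3 irradiated arrays (filled, upper row of a gene) and the 3 control arrays (open, lower row), grouped by role. The dashed line is the median gene level of 6.46. In 5 of the 44, Slc25a44, Slc25a33, Slc25a26, Slc25a47 and Slc25a18, all filled points lie left of all open points. Of all genes 5.36% had their irradiated arrays below all controls.

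No carrier passed the test of irradiated against control cultures. With experiment as a blocking term and Benjamini-Hochberg adjustment over all 18193 genes, limma called 0 of 44 carriers and 0 of all genes (0%), and every carrier had an adjusted p of 0.995. At an unadjusted p under 0.05 limma gave 2 carriers, Slc25a44 and Slc25a33, both lower, where 1.89% of all genes were lower and 1.42% higher at that threshold (3.31% in either direction). limma without the block also called 0 carriers, with 3 at an unadjusted p under 0.05, and an ordinary paired test called 0, with 2. The ordinary paired test called 8 other genes, with a smallest adjusted p of 0. Values have 2 decimals, so equal differences in the 3 experiments can leave that test no spread. Whether the 8 calls are of that kind was not tested.

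The intervals limit the size of difference that these arrays leave possible. For 43 of 44 carriers (97.7%) the whole 95% interval of irradiated minus control lay within 1.5-fold in either direction, against 98.3% of all genes. The exception at 1.5-fold was Slc25a34, whose interval reached 0.66-fold at its lower end. In the median carrier an interval extended 0.21 log2 units (1.16-fold) beyond its estimate in each direction. The intervals are not adjusted for the number of carriers.

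More carriers lay below 0 than above it. The median difference over the 44 carriers was -0.043 log2 units and 31 of them (70.5%) were below 0, where the median gene stood at -0.010 and 53.3% of all genes were below 0. With dimmer genes (below the median level) set aside the shares were nearer to each other, at 67.7% of 31 carriers and 58.2% of 9099 genes. Lower in all 3 experiments were 8 carriers (18.2%), against 12.8% of all genes (16.1% against 14.5% at or above the median level). Higher in all 3 were 0, against 8.23% of all genes (0 against 5.92% at or above the median level). All 3 irradiated arrays lay below all 3 controls in 5 carriers, where 5.36% of all genes did so, and above them in 0, where 2.9% did. At or above the median level they lay below in 3 of 31 carriers and in 609 of 9099 genes. Above all controls there were 0 of these carriers and 194 of these genes. The family's median was -0.035, -0.11 and -0.045 in experiments 1 to 3. Without experiment 2 it was -0.018, with 25 of 44 carriers below 0. Without experiment 3 it was -0.078, with 34 below 0, and without experiment 1 it was -0.068, with 27.

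**Figure D2:**
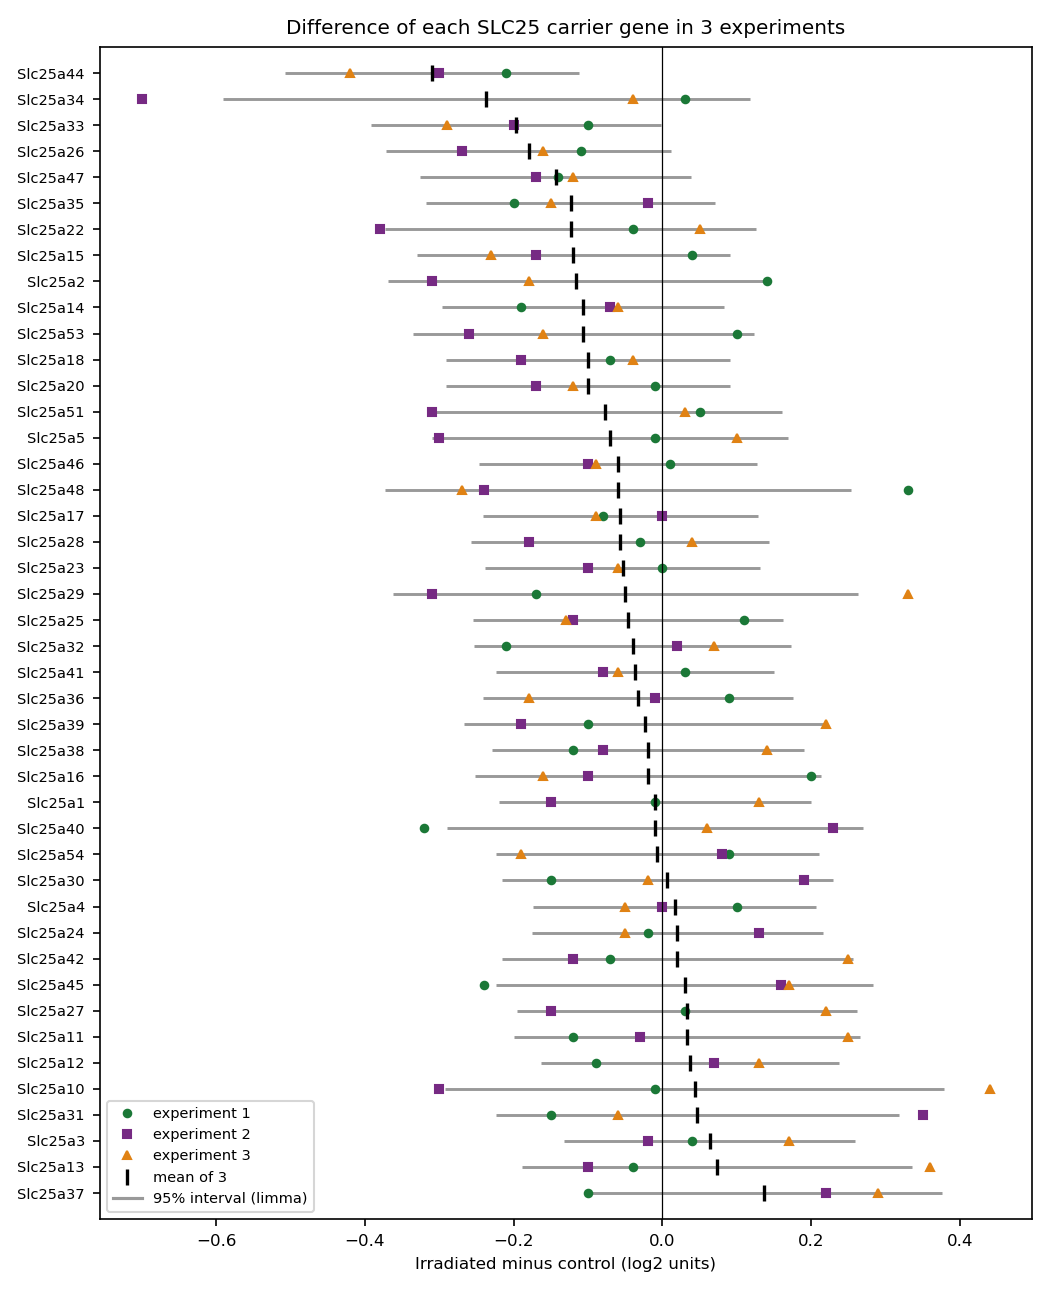
Irradiated minus control (log2 units, horizontal) for each of the 44 carriers, ordered by the mean. Symbols are the 3 experiments, the upright bar is their mean and the grey line the 95% interval from limma. The interval of Slc25a44 runs from -0.51 to -0.11, and the square at -0.70 is Slc25a34 in experiment 2.

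Slc25a44, which carries branched-chain amino acids into mitochondria and is known from brown fat, had the smallest p of the family. It read 7.79, 7.66 and 7.61 on the irradiated arrays of experiments 1 to 3, against 8.0, 7.96 and 8.03 on their controls. Every irradiated array lay below every control. The difference was -0.31 log2 units (SE 0.083, 95% interval -0.51 to -0.11, n = 3 experiments), or 0.81-fold, and it ranked 45 among all genes by p, with a limma adjusted p of 0.995. The gene had already appeared among the extremes of all genes in these data, so its place here is no independent support. Its other probe sets did not repeat that size. The second one had nearly the same level, with 7.89, 7.61 and 7.71 on irradiated arrays, against 7.88, 7.87 and 7.78 on controls. Its groups overlapped, and its mean difference in the fit over all probe sets was -0.11 (SE 0.095). The third and dimmest, at a level of 5.68, differed by -0.0033 (SE 0.11), with 0.21, -0.22 and 0 in the 3 experiments.

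Slc25a33 and Slc25a26 came next. Slc25a33, a pyrimidine nucleotide carrier with a single probe set, read 7.34, 7.32 and 7.36 on irradiated arrays, against 7.44, 7.52 and 7.65 on controls. The irradiated arrays lay close together and below all controls, which were spread more widely. Its difference was -0.20 (SE 0.082, n = 3), with a limma adjusted p of 0.995. Slc25a26 imports S-adenosylmethionine, the methyl donor, into mitochondria. Its values were 7.61, 7.55 and 7.57 on irradiated arrays, against 7.72, 7.82 and 7.73 on controls, again without overlap. The difference was -0.18 (SE 0.080, n = 3) with a limma adjusted p of 0.995, and a second, dimmer probe set (level 5.96) stood at -0.18, -0.34 and 0.14 in experiments 1 to 3.

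The other carriers without overlap between the groups were dim. Slc25a47, a carrier known from liver, read 5.86, 5.81 and 5.91 on irradiated arrays, against 6.0, 5.98 and 6.03 on controls. Its 3 differences of -0.14, -0.17 and -0.12 were the most alike among those 5 carriers, with a mean of -0.14 (SE 0.076). Slc25a18, a glutamate carrier, had a level of 3.44 and differed by -0.10 (SE 0.080). Both lay below the median gene level, where RMA tends to understate changes.

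**Figure D3:**
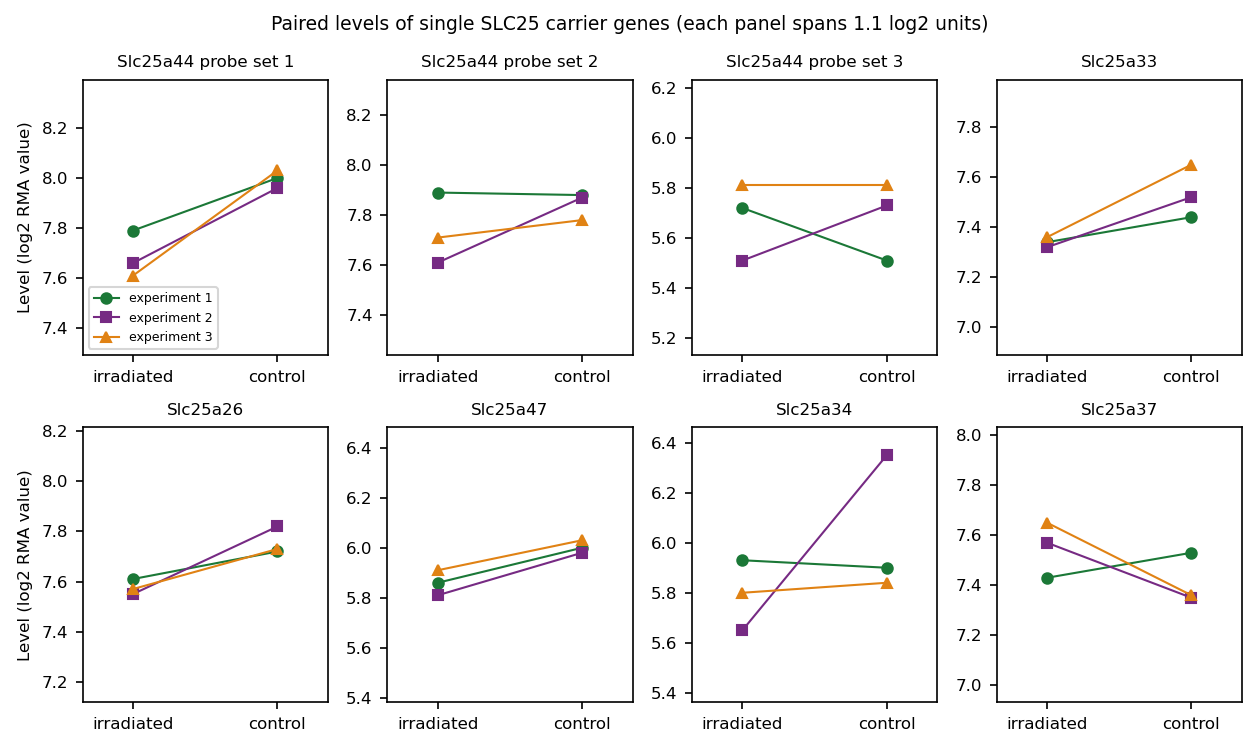
Levels (log2 RMA value) of single carriers on the irradiated array (left) and control array (right) of each experiment, joined by lines, with 1.1 log2 units on each vertical axis. The 3 experiments slope the same way in the first probe set of Slc25a44 and in Slc25a33, Slc25a26 and Slc25a47, but not in the other probe sets of Slc25a44, in Slc25a34 or in Slc25a37.

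Carriers of adenine nucleotides and phosphate, which feed the ATP synthase and export its product, showed no common direction. Of 8 measured 0 were called, 4 were above 0 and 4 below, with a median of -0.010. Slc25a5, an ADP/ATP carrier of many tissues, read 13.02, 12.87 and 12.98 on irradiated arrays, against 13.03, 13.17 and 12.88 on controls. The control of experiment 2 was its highest array and the irradiated one its lowest. Slc25a4, the ADP/ATP carrier of heart and muscle, read 12.38, 12.33 and 12.29 on irradiated arrays, against 12.28, 12.33 and 12.34 on controls. Both differences were small, at -0.070 (SE 0.10) for Slc25a5 and 0.017 (SE 0.080) for Slc25a4. Slc25a3, which brings in phosphate, read 12.58, 12.55 and 12.62 on irradiated arrays, against 12.54, 12.57 and 12.45 on controls, a difference of 0.063 (SE 0.082). Those 3 carriers had intervals of -0.31 to 0.17, -0.17 to 0.21 and -0.13 to 0.26 log2 units.

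The carriers of ATP-magnesium against phosphate lay near 0 too. Slc25a24 differed by 0.020, Slc25a25 by -0.047, Slc25a23 by -0.053 and Slc25a41 by -0.037, and the sperm carrier Slc25a31 by 0.047. The last 3 of these were below the median gene level. Slc25a25 had controls at 7.56, 7.98 and 7.98, and its irradiated arrays, at 7.67, 7.86 and 7.85, followed the same order of experiments.

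Carriers of cofactors and other nucleotides lay mostly below 0. Among 8 measured 0 were called, 7 were below 0 and the median was -0.048. Slc25a33 and Slc25a26 belong to this group. Slc25a51, the NAD carrier, read 11.45, 11.36 and 11.51 on irradiated arrays, against 11.40, 11.67 and 11.48 on controls. Its mean of -0.077 (SE 0.099) came from experiment 2, at -0.31, while experiments 1 and 3 stood at 0.05 and 0.03. Slc25a17, a peroxisomal member of the family, read 10.90, 10.91 and 10.85 on irradiated arrays, against 10.98, 10.91 and 10.94 on controls, and differed by -0.057 (SE 0.077). The pyrimidine nucleotide carrier Slc25a36, which shares its substrates with Slc25a33, differed by -0.033 (SE 0.087). Slc25a32, for folate and flavin, stood at -0.040, Slc25a16 at -0.020 and the coenzyme A carrier Slc25a42 at 0.020.

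Carriers of carboxylates and keto acids differed between experiments. Of 5 measured 0 were called, 3 were below 0 and the median was -0.010. Slc25a1, the citrate carrier, read 8.83, 8.72 and 8.86 on irradiated arrays, against 8.84, 8.87 and 8.73 on controls, a difference of -0.010 (SE 0.088). The dicarboxylate carrier Slc25a10 read 8.83, 8.76 and 8.97 on irradiated arrays, against 8.84, 9.06 and 8.53 on controls. Its experiments therefore stood at -0.01, -0.30 and 0.44, and its second probe set at 0.09, -0.39 and 0.51, so that both probe sets had opposite signs in experiments 2 and 3. The control of experiment 3, whose RNA measures stood apart, was the lowest array of both. The mean was 0.043 (SE 0.14). Slc25a34, whose substrates are little known, read 5.93, 5.65 and 5.80 on irradiated arrays, against 5.90, 6.35 and 5.84 on controls. The control of experiment 2 stood above the other 5 arrays, and the difference of -0.24 (SE 0.15) came from the -0.70 of that experiment. The oxoglutarate-malate carrier Slc25a11 was at 0.033 (SE 0.097) and Slc25a35 at -0.12 (SE 0.081).

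The group for amino acids and carnitine held 13 carriers, of which 0 were called and 10 were below 0, with a median of -0.10. Slc25a20, which carries acylcarnitines for fatty acid oxidation, read 10.09, 9.88 and 9.85 on irradiated arrays, against 10.10, 10.05 and 9.97 on controls. It lay below its own control in each experiment, by -0.01, -0.17 and -0.12, and the groups overlapped. The mean was -0.10 (SE 0.080). Slc25a13, an aspartate-glutamate carrier of the malate-aspartate shuttle, read 6.49, 6.52 and 6.71 on irradiated arrays, against 6.53, 6.62 and 6.35 on controls. Its mean of 0.073 (SE 0.11) came from experiment 3, at 0.36. Slc25a12, the other carrier of that shuttle, differed by 0.037 (SE 0.084).

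Those carriers on the amino acid and carnitine list that are described only here stayed between -0.12 and 0.03. A place on that list was assigned for grouping, and substrates were not tested. Slc25a22, a glutamate carrier, stood at -0.12 (SE 0.10) with -0.38 in experiment 2. The ornithine carriers Slc25a15 and Slc25a2 were at -0.12 (SE 0.088) and -0.12 (SE 0.11), the second of them dim on all arrays. Slc25a29, for basic amino acids, ran at -0.17, -0.31 and 0.33 in the 3 experiments, a mean of -0.050 (SE 0.13). Slc25a38, which supplies glycine for haem synthesis, was at -0.020, Slc25a48 at -0.060 and Slc25a45 at 0.030.

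Iron and glutathione carriers and the uncoupling-like members showed no shared direction in their mean differences. Among the 4 carriers of iron and glutathione 0 were called and 3 were below 0. All 4 were below 0 in experiment 1 and 0 of 4 in experiment 3, with medians of -0.10 and 0.14. Slc25a37, or mitoferrin-1, which imports iron, had the highest mean difference of the family, with 7.43, 7.57 and 7.65 on irradiated arrays, against 7.53, 7.35 and 7.36 on controls. Its mean was 0.14 (SE 0.10), with experiment 1 at -0.10 and the others at 0.22 and 0.29. Slc25a28, mitoferrin-2, stood at -0.057 (SE 0.084). The glutathione carrier Slc25a39 read 12.21, 12.10 and 12.29 on irradiated arrays, against 12.31, 12.29 and 12.07 on controls, with a mean of -0.023 (SE 0.10), and its relative Slc25a40 was at -0.010 (SE 0.12). Of the 3 uncoupling-like carriers 0 were called. Slc25a14 was below its control in each experiment, with a mean of -0.11 (SE 0.079), while Slc25a30 stood at 0.0067 and the dim Slc25a27 at 0.033. Among the rest Slc25a46, an outer membrane member tied to mitochondrial shape, was at -0.060, Slc25a53 at -0.11 and Slc25a54 at -0.0067.

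Where a carrier had several probe sets, they often fell on both sides of 0. Over 1 probe set was present for 23 carriers, and in 14 of these the means had both signs. Of the 93 probe sets 60 were below 0 and 33 above, where 50.4% of all 45037 probe sets were below 0. limma over all probe sets called 0 of the 93 after Benjamini-Hochberg adjustment and 0 of all (0%), with 2 of the 93 at an unadjusted p under 0.05, against 3.77% of all. Both were lower: the first probe set of Slc25a44 and 1 of Slc25a27 at a level of 2.37. Bright probe sets of the ADP/ATP carriers lay close together. In Slc25a5 the 5 within 2 log2 units of the brightest ran from -0.077 to -0.027, and in Slc25a4 the 3 such probe sets from 0.0033 to 0.050.

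**Figure D4:**
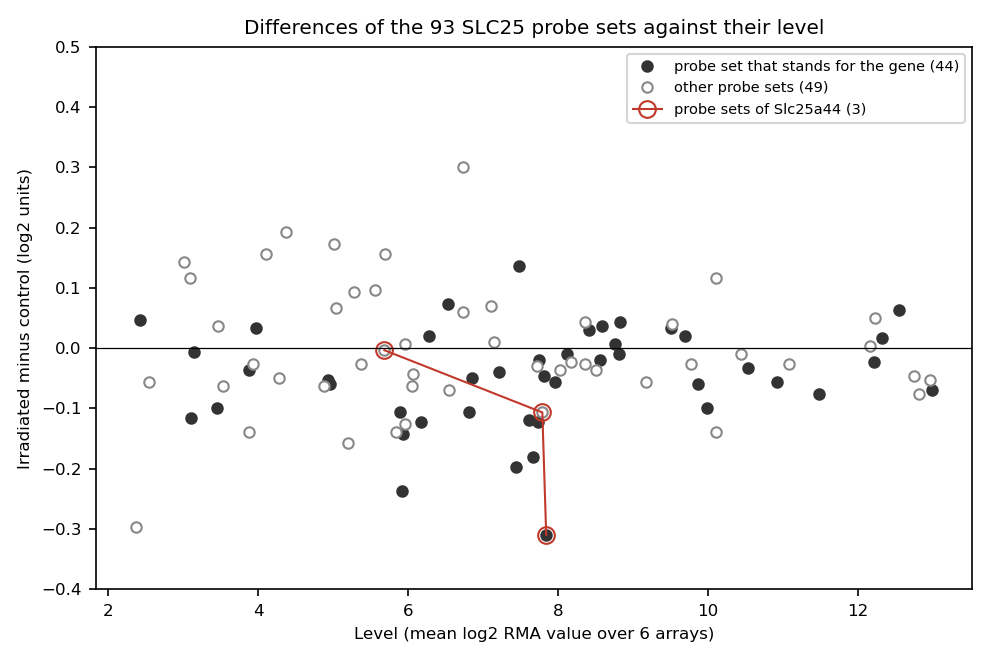
Mean irradiated-minus-control difference (log2 units) of the 93 carrier probe sets against their mean level (log2 RMA value). Filled points are the 44 that stand for a gene, open points the 49 others, and the line joins the 3 probe sets of Slc25a44, at -0.31, -0.11 and -0.0033.

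The differences can be set beside the variation between cultures of the same kind, though the measures are unlike. The SD over the 3 controls was 0.11 log2 units in the median carrier, from 0.017 for Slc25a46 to 0.32 for Slc25a48, and over the irradiated arrays it was 0.080. The median absolute difference between groups was 0.055. It exceeded the SD of the gene's own controls in 12 carriers (27.3%), a share near the 31.1% of all genes. The 3 differences of a carrier spanned 0.28 log2 units in the median.

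Experiment 2 held most of the strongly lower single values. There 33 of 44 carriers (75.0%) were below their control, where 50.1% of all genes were, and 8 were at or below -0.3 (18.2%, against 6.66% of all genes). In experiment 1 the share of carriers below 0 was 63.6% (56.4% of all genes) and in experiment 3 it was 56.8% (48.5%), with 1 carrier at or below -0.3 in each. With those dimmer genes set aside the shares of carriers and of genes were 74.2% and 66.9% in experiment 1, 71.0% and 48.9% in experiment 2 and 45.2% and 47.5% in experiment 3, where the order of the shares was turned. The mean level of the 44 carriers was lowest on the irradiated array of experiment 2, at 7.65, and highest on its control, at 7.76.

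Fat-cell markers had the same extreme arrays. The mean of the 12 fat-cell markers was also lowest on the irradiated array of experiment 2, at 10.70, and highest on its control, at 11.26, with 10.85 to 11.11 on the other 4 arrays. Their median difference was 0.070, -0.61 and 0.020 in experiments 1 to 3. All 12 had a mean below 0 and 0 were called, and the list's median of -0.16 became 0.040 without experiment 2. Lipe, hormone-sensitive lipase, stood at -1.17 in experiment 2 and Pnpla2, adipose triglyceride lipase, at -0.83, while Fabp4 and Adipoq were at -0.12 and -0.26. Stromal markers had a median of 0, 0.19 and 0.045, and macrophage markers of -0.15, 0.065 and 0.16, in experiments 1 to 3, and 0 genes of either list were called. The part of cell composition in the carriers' values was not tested.

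**Figure D5:**
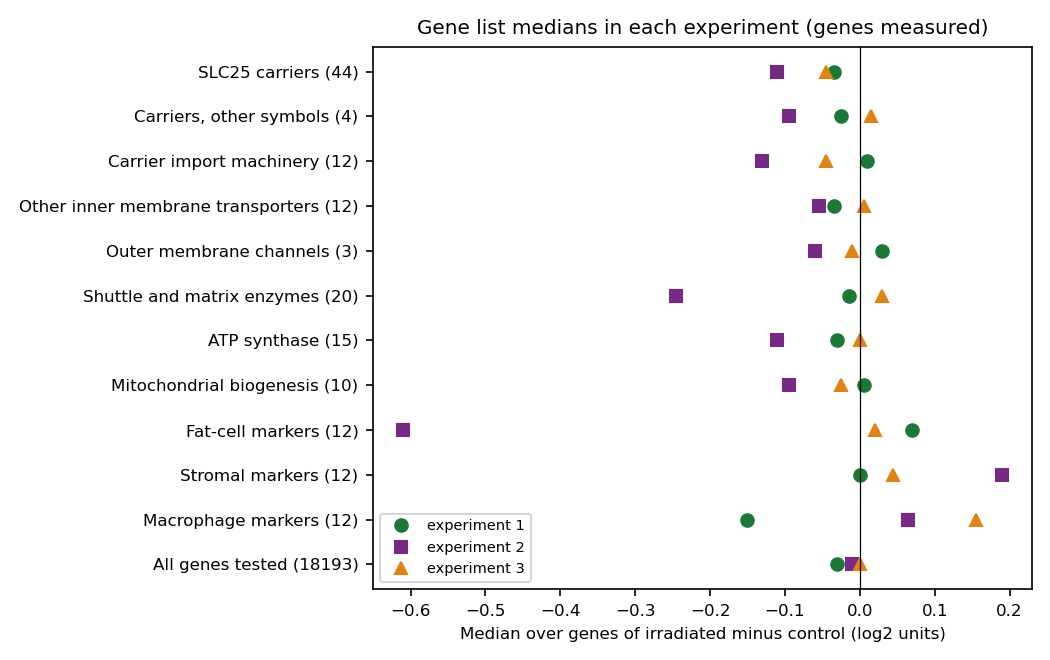
Median over the genes of a list of irradiated minus control (log2 units), for experiments 1 to 3, with the number of genes measured. Experiment 2 lies at -0.11 for the SLC25 carriers, at -0.25 for the enzymes that work with them and at -0.61 for fat-cell markers, and at -0.010 for all genes.

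Enzymes that work with the carriers also had their lowest median in experiment 2. Of 20 enzymes of the shuttles and of the matrix pathways they serve, 0 were called and 17 were below 0, with a median of -0.067 overall and -0.015, -0.25 and 0.030 in experiments 1 to 3. Without experiment 2 that median was 0.060. Gpd1, the cytosolic enzyme of the glycerol phosphate shuttle, read 9.12, 8.34 and 8.95 on irradiated arrays, against 9.38, 9.29 and 8.39 on controls. It thus stood at -0.26, -0.95 and 0.56, the order of experiments 2 and 3 also seen in Slc25a10. Cpt2, which acts on the acylcarnitines that Slc25a20 brings in, was at -0.22 (SE 0.14) with -0.65 in experiment 2. Bckdhb, of the complex that oxidises branched-chain keto acids in the matrix, was at -0.16 (SE 0.14), with -0.58 in experiment 2 and 0.18 in experiment 3. Slc25a44 was below 0 in both. Mdh2 and Idh1, the brightest of the list, differed by -0.030 and -0.060.

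The other mitochondrial lists held 0 called genes each. The carriers under other symbols had a median of -0.067 (-0.028 without experiment 1 and -0.025 without experiment 2), with Mtch2 of the outer membrane at -0.087 (SE 0.093) and its relative Mtch1 at -0.057. Ucp1, the heat-producing uncoupling protein of brown fat, read 4.30, 4.57 and 4.49 on irradiated arrays, against 4.56, 4.68 and 4.35 on controls. It was dim on every array and its groups overlapped. Ucp3 stood at 0.093 (SE 0.098). The import machinery for carriers had a median of -0.048, with 9 of 12 genes below 0, and the median was 0.010 over all probe sets of the list and -0.013 without experiment 2. Timm10, a small chaperone between the membranes that hands carriers on, stood at -0.12, -0.14 and -0.13 in the 3 experiments, a mean of -0.13 (SE 0.076), Timm8a1 at -0.12 (SE 0.084) and Timm13 at -0.11 (SE 0.078).

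The ATP synthase list, whose substrates Slc25a3, Slc25a4 and Slc25a5 supply, had a median of -0.057, with 12 of 15 subunits below 0, and -0.015 without experiment 2. Atp5k differed by -0.14 (SE 0.077) and Atp5d by -0.10 (SE 0.089), and the catalytic subunit gene Atp5b by 0.020. Outer membrane channels had a median of -0.047 (-0.015 without experiment 1 and -0.025 without experiment 2), with Vdac1 at -0.093 (SE 0.086), Vdac2 at -0.047 and Vdac3 at 0.033. Other transporters of the inner membrane stood at -0.023, with 8 of 12 below 0, and at 0.0075 without experiment 1. Sfxn1, a serine transporter, was at -0.25 (SE 0.13) with -0.65 in experiment 2, and Mpc1, of the pyruvate carrier, at -0.11 (SE 0.090).

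Regulators of mitochondrial biogenesis had a median of -0.043, with 7 of 10 below 0, and of -0.010 without experiment 2. Ppargc1a, the coactivator that raises mitochondrial genes, read 4.62, 4.65 and 4.47 on irradiated arrays, against 3.91, 4.21 and 4.57 on controls. Its groups overlapped, at a level below that of the median gene, and the difference was 0.35 (SE 0.15). Its relative Ppargc1b read 8.4, 7.79 and 8.08 on irradiated arrays, against 8.4, 8.57 and 8.11 on controls. That difference of -0.27 (SE 0.16) came from experiment 2. Tfb2m, a mitochondrial transcription factor, stood at -0.093 (SE 0.077) and Gabpa at 0.070 (SE 0.079).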

How the data were processed

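The deposited log2 values, 1 column per array and 1 row per probe set, were made by the authors with RMA. The tools affy and limma are named per the submitters' processing notes, without versions. No label states the log base; it was taken from the range, 1.73 to 14.53. Quantile normalization hides a change common to all transcripts. Array dates were not used here, and no batch was tested.

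Of 45101 probe sets 64 array controls were left out, and 34945 of the others had 1 symbol in the platform annotation. All 18193 genes, each by its probe set with the highest mean and with no filter on dim genes, were fitted in limma 3.58.1 under R 4.3.3 (lmFit, eBayes) as irradiated minus control with experiment as a blocking term. A gene was called at a Benjamini-Hochberg adjusted p under 0.05. There were 2 residual degrees of freedom, and eBayes contributed 4.66 more.

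Arrays are paired because the design text gives each experiment its own control. As a check, same-numbered arrays' departures from their group mean correlated across genes at 0.150, -0.0903 and -0.0124. Arrays of different number reached 0.164 (irradiated 2 with control 3) and 0.126 (irradiated 3 with control 2). The remaining such pairs ran from -0.128 to -0.0442. For experiments 2 and 3 the crossed pairs were thus more alike than the stated ones. Every value given for a single experiment rests on the pairing in the design text. The limma p-values and SEs rest on the spread between these 3 experiments, which eBayes draws toward that of the other genes. They therefore need not match the spread of a gene's own 3 differences.

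The fit was tested on simulated data. Members and lists were chosen with earlier results of these data known. Values on every array are given for the 6 members with the highest mean, the 3 per direction with the smallest p, Slc25a44 and members chosen by role. Slc25a47, Slc25a34, Slc25a10, Slc25a25 and Thy1 were added after their values were seen. Genes named from the other lists are among the 3 with the largest difference and the 2 with the highest mean of each list. Promoters are from RefSeq (GRCm38.p6), and protein sequences were not used here. Alternatives were other blocks, other moderation, averaged probe sets, all probe sets, a level filter, centred arrays and leaving out an experiment.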

Additional observations from a re-analysis of the deposited data

How the results depend on the processing

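None of the 12 alternatives (limma in 11, an ordinary paired test in 1) called a carrier after Benjamini-Hochberg adjustment, with 0 to 3 at an unadjusted p under 0.05. Over all genes limma called 0 in all 11 and the ordinary paired test 8, where equal differences in the 3 experiments can leave no spread. Without the replicate block 649 of all genes were at an unadjusted p under 0.05, against 603, and the pairing changed no call. The family's median lay below 0 under every alternative run. On arrays centred on their median 28 carriers were below 0, where 48.5% of all genes were. Slc25a44 had the smallest p of the family except with the probe sets of a gene averaged (Slc25a33) and in the ordinary paired test (Slc25a47). Averaging also turned the sign of Slc25a12 (-0.0022), Slc25a25 (0.016), Slc25a53 (0.033), Slc25a48 (0.031) and Slc25a27 (-0.037), and centring that of Slc25a54 (0.0033). The brown fat markers' median of 0.19 became -0.061 with averaged probe sets, -0.12 with all probe sets and -0.21 with the 1 gene at or above the median level. It was 0 to 0.14 when an experiment was left out, and that of the other inner membrane transporters -0.045 to 0.0075. Other list medians also turned sign when an experiment was left out, those of fat-cell markers (-0.27 to 0.040), shuttle enzymes (-0.10 to 0.060), macrophage markers (-0.063 to 0.098) and endothelial markers (-0.010 to 0.058). The stromal markers' ranged from 0.018 to 0.15, and that of the carrier import genes was 0.010 with all probe sets. The cause was not tested. Leaving out an experiment turned the sign of these carriers, given with the lowest and highest value: Slc25a1 -0.08 to 0.06, Slc25a4 -0.025 to 0.05, Slc25a5 -0.155 to 0.045, Slc25a10 -0.155 to 0.215, Slc25a11 -0.075 to 0.11, Slc25a12 -0.01 to 0.10, Slc25a13 -0.07 to 0.16, Slc25a16 -0.13 to 0.05, Slc25a22 -0.21 to 0.005, Slc25a24 -0.035 to 0.055, Slc25a27 -0.06 to 0.125, Slc25a28 -0.105 to 0.005, Slc25a29 -0.24 to 0.08, Slc25a30 -0.085 to 0.085, Slc25a31 -0.105 to 0.145, Slc25a32 -0.095 to 0.045, Slc25a36 -0.095 to 0.04, Slc25a38 -0.10 to 0.03, Slc25a39 -0.145 to 0.06, Slc25a40 -0.13 to 0.145, Slc25a42 -0.095 to 0.09, Slc25a45 -0.04 to 0.165, Slc25a48 -0.255 to 0.045, Slc25a51 -0.14 to 0.04, Slc25a54 -0.055 to 0.085. None of them was called, so these signs have no test behind them. Dim probe sets, 13 of 44 below the median level, limit what can be seen of their genes.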

Other observations

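Some dimmer probe sets of bright carriers stood further from 0 than the probe set that stands for the gene. The second probe set of Slc25a24, at a level of 6.74, differed by -0.10, 0.48 and 0.52 in experiments 1 to 3, a mean of 0.30 (SE 0.13), while the brighter one at 9.69 differed by 0.020. Of Slc25a5, probe sets at 10.11 stood at 0.79, -0.16 and -0.28 and at 0.49, -0.45 and -0.46, whereas the 5 brightest lay between -0.04 and 0.01 in experiment 1. Slc25a53 had -0.11 and 0.17 in its 2 probe sets. Slc25a27 spanned -0.30 to 0.14 over 4 dim ones.

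Markers of brown fat cells were dim, with 1 of 7 at or above the median gene level, and 0 were called. Their median was 0.19, with Cidea and Elovl3 both at 0.23 and Dio2 at -0.21 (SE 0.13). Endothelial markers had a median of 0.012, and 0 were called.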
